A study of Rattus norvegicus with 12 samples.

Results

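Bur drilling of rat calvarial bone was set against removal of the periosteum alone. The comparison used 8 of the 12 one-colour arrays of the series: the 4 labelled bur and the 4 labelled control, chosen by their titles. The third group, 4 arrays of bone cut with an Er:YAG laser, entered the model for its share in the estimate of the spread and is used below only where the bur response differs from it. All rats were 10 weeks old, and calvaria was taken 24 h after surgery. Bur samples came from calvaria with a drilled defect, 8 mm long and 3 mm wide, made at a feed speed near 0.75 mm/s. Control samples came from calvaria stripped of its periosteum, the membrane that covers bone, with no cut made. The labels name no strain, genotype or drug, and they leave unstated whether each array stands for a different animal, so every p-value measures only the spread between these arrays. Expression was read across 16378 genes, of which 1115 stood in at least 1 of 60 gene lists on marrow cells, metabolism, matrix and signalling.

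Calvarial bone holds small marrow spaces in which red cells, platelets and granulocytes are made beside bone-forming osteoblasts, embedded osteocytes and bone-resorbing osteoclasts. After injury, blood cells enter the wound, clot proteins are broken down, and macrophages and fibroblasts clear debris and lay down a provisional matrix of fibronectin, tenascins and collagens before new bone forms. Cells short of oxygen switch on glucose uptake and glycolysis through the transcription factor HIF, and inflammatory stimuli drive the same pathway together with NF-kB, whose inhibitors are among its own targets. In tissue RNA, fewer cells of a type and less RNA per cell of that type cannot be told apart.

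Of the 16378 genes tested, limma called 3835 (23.4%) with a Benjamini-Hochberg adjusted p below 0.05, 2239 (13.7%) higher and 1596 (9.74%) lower after bur drilling. Calls of at least 2-fold numbered 1056 higher (6.45%) and 739 lower (4.51%). The 4 values of one group lay entirely above the 4 of the other for 3805 genes (23.2%). All differences are log2 units, bur minus control, with n = 4 arrays per group and the standard error (SE) from limma. The median over all genes was 0.08, and it was -0.08 with arrays aligned at their 75th percentile instead of by quantiles, a shift of -0.155. That scaling called 1654 higher and 2262 lower, so the share of calls that were higher was 42.2% against 58.4%. Medians of gene lists are therefore given beside the median of 0.08. Before normalization the median processed signal was 18.7 to 28.3 on bur arrays and 16.5 to 43.2 on control arrays, and 57.0% to 59.9% and 57.2% to 64.4% of spots were well above background. The 8 arrays shared a slide with bur in one column and control in the other, so slide column and treatment cannot be told apart. The bone label was borne out by osteocalcin (Bglap) at 14.77 to 16.65 and Col1a1 at 15.43 to 16.35 on all 8 arrays. Control arrays 1 and 4 stood apart in nerve transcripts: the mean log2 signal of 13 neuronal and glial genes was 7.93 and 7.35 there, 5.95 and 5.47 on control arrays 2 and 3, and 4.72 to 6.01 on bur arrays. Without those 2 arrays 1121 genes were called higher and 1231 lower, from 2 control arrays instead of 4.

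**Figure D1:**
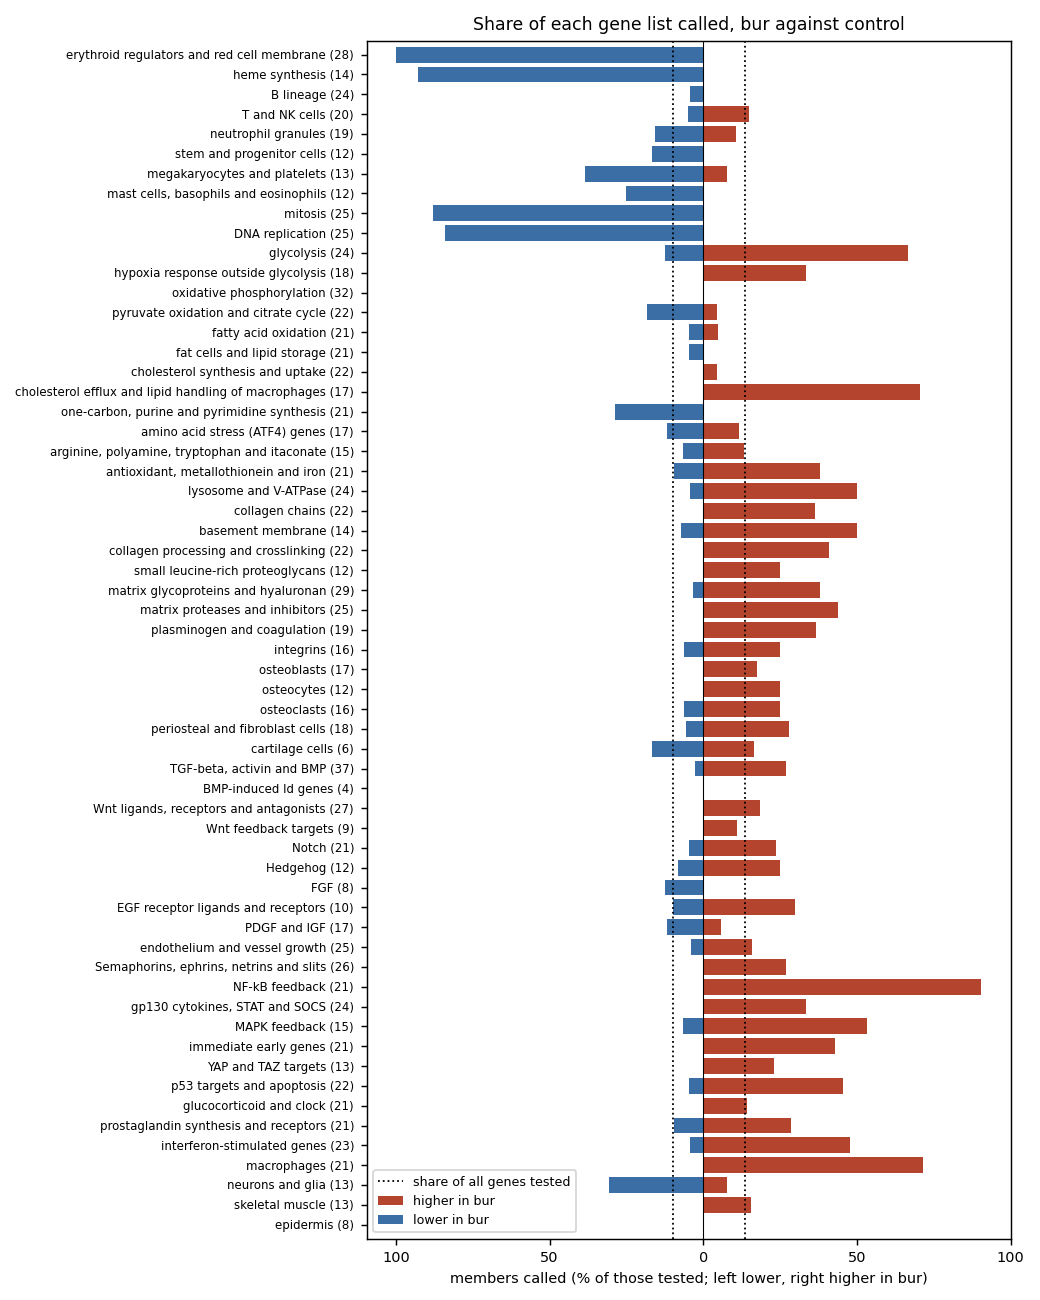
Share of the tested members of each of the 60 gene lists that were called higher (right, red) or lower (left, blue) in bur than in control bone, with the number tested in brackets; dotted lines mark the shares of all genes, 13.7% higher and 9.74% lower. Red cell, heme, mitosis and replication lists extend to the left, and NF-kB, macrophage and glycolysis lists to the right.

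Red cell genes fell together. All 28 genes listed for erythroid regulators and the red cell membrane were called lower, 26 of them under all 18 alternatives of processing and array choice, with a list median of -1.59. Klf1, the transcription factor that switches on adult globin and membrane genes, read 8.30, 8.00, 7.77 and 7.58 on bur arrays 1 to 4 and 9.56, 9.52, 9.23 and 9.69 on control arrays 1 to 4. Every bur value lay below every control value, and the difference was -1.59 ± 0.19 (SE; adjusted p = 0.000374), a 3.01-fold lower level. Gata1, the master regulator of red cell and platelet precursors, was at 7.61, 8.04, 6.60 and 6.27 on bur and 9.48, 9.98, 9.03 and 8.52 on control arrays, differing by -2.12 ± 0.40 (SE; adjusted p = 0.00366). Its 4 values did not overlap with those of the controls either, although bur arrays 3 and 4 were lower than 1 and 2. Among membrane proteins, the anion exchanger Slc4a1 fell by 1.94 ± 0.27 and ankyrin Ank1 by 1.80 ± 0.24. The erythropoietin receptor Epor fell by 1.34 ± 0.19, and the transferrin receptor Tfrc, which takes up iron, by 1.31 ± 0.32. Only Icam4 and Trim10 had groups that overlapped; their calls were lost in the fit of the 8 arrays alone and without bur array 4 (adjusted p = 0.0526 and 0.0532).

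Genes of heme synthesis fell with those of the membrane. Of 14 enzymes and carriers 13 were called lower, with a median of -1.26, and 11 under all alternatives. Alas2, the red cell form of the first enzyme, read 13.47, 13.93, 13.09 and 12.87 on bur arrays 1 to 4 and 15.03, 15.07, 15.25 and 15.01 on control arrays 1 to 4, a difference of -1.75 ± 0.26 (SE; adjusted p = 0.00101). The bur arrays thus lay more than 1 log2 unit below the lowest control array. Ferrochelatase Fech, which inserts the iron, fell by 1.85 ± 0.27, and the mitochondrial iron importer Slc25a37 by 1.93 ± 0.43. The single member not called was Alas1, the form used by cells other than red cells, at -0.41 ± 0.40 (SE; adjusted p = 0.484); its values of 11.86 to 12.50 on bur arrays overlapped with 11.70 to 13.22 on control arrays.

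The promoter of Epor is shown because a red cell gene that fell carries in it a match to AGATAA, the letters bound by GATA factors, read on both strands. It comes from RefSeq as the 250 bases before the annotated start on assembly GRCr8, chr8:28770323-28770572, minus strand, with the match in capitals 114 bases before the start, read on the opposite strand.
Epor: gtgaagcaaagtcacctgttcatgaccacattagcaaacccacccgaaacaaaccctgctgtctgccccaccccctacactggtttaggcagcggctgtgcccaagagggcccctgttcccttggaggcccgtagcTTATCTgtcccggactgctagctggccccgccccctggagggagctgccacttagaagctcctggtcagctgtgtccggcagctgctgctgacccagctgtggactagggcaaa
Of the 20 erythroid-list genes with a promoter in that table, 6 (30%) held AGATAA within these 250 bases, against 6.39% of 11921 promoters of tested genes. Gata1 itself was 4.35-fold lower in the same samples, and a link between its level and these matches was not tested. A match is a description of letters, not a measured binding site.

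The lists of marrow lines other than red cells held fewer calls. Of 24 B lineage genes, from the precursor factors Ebf1 and Pax5 to the receptor chains Cd79a and Cd79b, 1 was called (median -0.26). The one call, Cd22 at -1.77 ± 0.26 (SE; adjusted p = 0.00111), rested on 1 of 3 probes: the others gave -0.08 and 0.18, neither called, and the mean of the probes was not called. Among 20 T and NK genes (median 0.07) the receptor chains Cd3e, Cd3d and Cd3g were at -0.46, -0.14 and -0.33 with no call. Cd8a, a coreceptor of cytotoxic T cells that some myeloid cells also carry, read 8.44, 7.92, 7.67 and 8.35 on bur arrays 1 to 4 and 4.84, 5.99, 6.09 and 5.48 on control arrays 1 to 4 and rose by 2.50 ± 0.36 (SE; adjusted p = 0.00101). Its partner Cd8b (1.80 ± 0.37) and the adhesion receptor Cd2 (2.66 ± 0.58) were also called higher, but only 2 and 1 of the control arrays detected them above background, and raising the dim arrays to the detection limit left Cd2 at 2.28. The granule protein Nkg7 was called lower at -1.27, a call lost without any 1 of 5 arrays.

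Shares called lower were 38.46% for megakaryocytes and platelets and 15.79% for neutrophil granules. They were 25% for mast cells, basophils and eosinophils and 16.67% for stem and progenitor cells. Shares called higher were 7.692%, 10.53%, 0% and 0% in that order. Of all genes 9.74% were called lower and 13.7% higher, so the neutrophil shares lay near those of all genes. Of 13 megakaryocyte and platelet genes 5 were called lower and 1 higher (median -1.22), and the calls of Ppbp, Rgs18 and Clec1b held under all alternatives. Ppbp, a chemokine precursor stored in platelet granules, fell by 1.53 ± 0.31 with no overlap, while Pf4, stored beside it, was at -0.52 (adjusted p = 0.231). The collagen receptor Gp6, the one member called higher (0.95 ± 0.30), lost its call under 11 alternatives. In the neutrophil list 3 of 19 genes were called lower and 2 higher (median -0.78). Prtn3, an early granule protease, read 11.31, 11.45, 12.34 and 11.68 on bur arrays 1 to 4 and 12.83, 12.49, 13.47 and 13.80 on control arrays 1 to 4 (-1.45 ± 0.40 SE, adjusted p = 0.0219), and the progenitor gene Ms4a3 was at -1.41 ± 0.33; both calls were lost without control arrays 1 and 4, and that of Prtn3 also without any 1 of bur arrays 1, 2 and 4 or control array 4. Itgam, the integrin chain that mature neutrophils and macrophages share, rose by 1.32 ± 0.31 on non-overlapping values, under all alternatives, and Csf3r, the receptor of the granulocyte growth factor, was called higher at 1.22 ± 0.36, a call lost without any 1 of bur arrays 1 and 2 and control arrays 1 and 2. S100a9, a calcium-binding protein that fills the neutrophil cytoplasm, was called lower at -0.51 ± 0.16, a call that was lost when any 1 of 6 arrays was left out. Myeloperoxidase Mpo (-0.78 ± 0.78) and elastase Elane (-1.05 ± 0.67) varied within both groups, from 8.03 to 9.68 and 8.22 to 9.98 on bur arrays and from 8.06 to 11.14 and 8.98 to 11.19 on control arrays. The eosinophil granule proteins Prg2 (-1.27 ± 0.33) and Epx (-1.11 ± 0.31) and the mast cell and basophil receptor chain Ms4a2 were the 3 of 12 genes called lower among mast cells, basophils and eosinophils; without control arrays 1 and 4 none of them was called, the call of Epx was also lost without control array 4 alone, and without bur array 4 Prg2 and Epx were at adjusted p = 0.053 and 0.0675. Of 12 stem and progenitor genes Gata2 and Lyl1 were called lower, at -0.70 and -0.63, with groups that overlapped and calls lost under 11 and 12 alternatives. Kit was at -0.60 and Cd34 at 0.25, with no call.

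**Figure D2:**
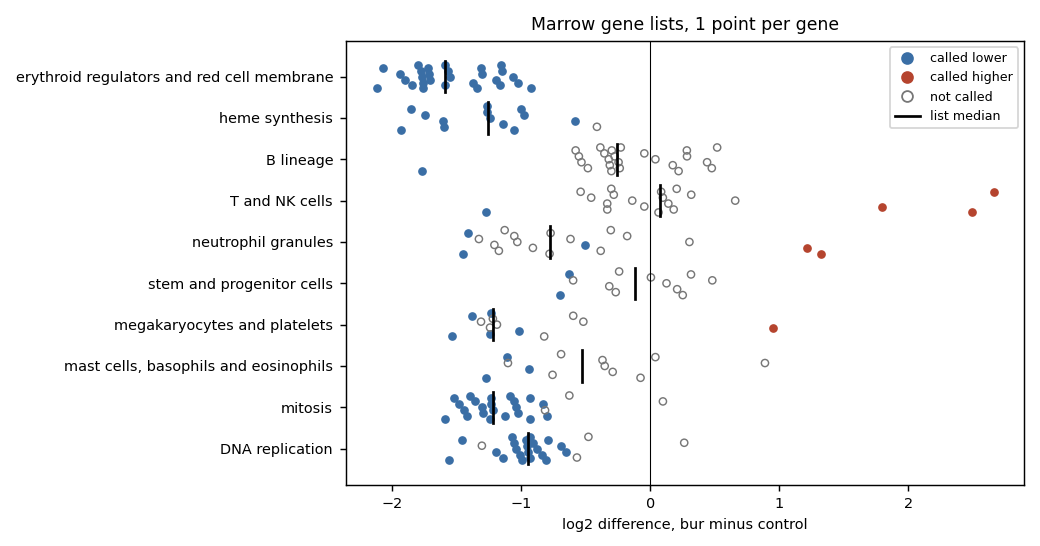
Log2 difference (bur minus control) of each tested gene in the 10 marrow lists, 1 point per gene; filled points were called and black bars mark list medians. Erythroid and heme genes lie left of 0 throughout, mitosis and replication genes nearly so, and B lineage genes lie around a median of -0.26 with Cd22 apart.

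Most genes of cell division fell. Of 25 mitosis genes 22 were called lower (median -1.22), and all 22 calls held under every alternative. Of 25 replication genes 21 were called lower (median -0.95), 19 under every alternative. Cyclin Ccnb2, which starts mitosis with Cdk1, read 10.14, 9.97, 10.16 and 9.58 on bur arrays 1 to 4 and 11.39, 11.48, 11.24 and 11.44 on control arrays 1 to 4. Within each group its values spanned less than 0.6, and the groups were 1.42 ± 0.14 apart (adjusted p = 0.000268), a 2.68-fold lower level. Cdk1 fell by 1.22 ± 0.14, the proliferation marker Mki67 by 1.59 ± 0.25 and the kinase Plk1 by 1.39 ± 0.18. Of the replication machinery, the helicase subunit Mcm5 fell by 1.07 ± 0.13, the loading factor Cdc45 by 1.04 ± 0.12 and thymidine kinase Tk1, which recycles thymidine, by 1.46 ± 0.18. Members not called in the mitosis list were Aurkb (-0.63), Cenpe (-0.82) and the phosphatase Cdc25c (0.10). One gene of cell cycle entry went the other way: cyclin Ccnd1, which couples growth signals to the start of the cycle, rose by 1.16 ± 0.21 with no overlap. The cells behind the falls in division genes cannot be named from whole tissue. Fewer dividing cells and less RNA per cell cannot be told apart. Over the 8 arrays the list means of mitosis were 7.71 to 8.29 on bur and 9.08 to 9.27 on control arrays. Those of the red cell list were 8.18 to 9.16 and 9.99 to 10.57.

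Mitotic genes share promoter letters, and the promoter of Ccnb2 shows them. CCAAT is bound by NF-Y, and TTTGAA is the core of the cell cycle homology region; both were searched on both strands, and their matches below do not overlap. The 250 bases before the RefSeq start lie at chr8:79981659-79981908 of GRCr8, minus strand. Capitals mark 3 matches to CCAAT, 134, 101 and 68 bases before the start, and 2 to TTTGAA, 214 and 43 bases before it.
Ccnb2: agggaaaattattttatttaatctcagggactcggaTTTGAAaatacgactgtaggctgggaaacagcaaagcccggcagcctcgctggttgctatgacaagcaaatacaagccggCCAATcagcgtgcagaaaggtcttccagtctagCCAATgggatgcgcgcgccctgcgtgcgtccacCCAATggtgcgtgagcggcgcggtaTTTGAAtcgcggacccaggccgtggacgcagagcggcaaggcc
CCAAT stood in 16 of 22 mitosis promoters (72.7%) and 13 of 21 replication promoters (61.9%), against 35.3% of all 11921. TTTGAA stood in 10 of the 22 mitosis promoters (45.5%), against 11.2% of all. Cdc25c, which was not called, held 4 matches to CCAAT and 1 to TTTGAA.

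Most glycolysis genes rose, and the glucose importer and the lactate exporter were among those that differed most. Of 24 genes 16 were called higher and 3 lower (median 0.88); 12 and 2 of these calls held under all alternatives. The glucose transporter Slc2a1 read 12.39, 11.68, 9.93 and 10.83 on bur arrays 1 to 4 and 9.92, 9.86, 7.65 and 7.76 on control arrays 1 to 4. Bur arrays 1 and 2 stood highest and all 4 lay above the controls, the nearest by 0.01, so that the difference of 2.41 ± 0.63 (SE; adjusted p = 0.0185) was lost without bur array 1 (adjusted p = 0.0508) or control array 4 (0.0508). Hexokinase Hk2, which traps glucose in the cell, read 9.20, 8.89, 7.92 and 8.61 on bur arrays 1 to 4 and 6.86, 6.96, 7.21 and 6.96 on control arrays 1 to 4; the lowest bur value was 0.71 above the highest control value, and the difference was 1.66 ± 0.26 (SE; adjusted p = 0.0014). Downstream, triosephosphate isomerase Tpi1 rose by 1.69 ± 0.36, Gapdh by 1.12 ± 0.15, enolase Eno1 by 0.99 ± 0.16 and lactate dehydrogenase Ldha by 0.80 ± 0.19. The lactate exporter Slc16a3 read 13.42, 13.26, 11.89 and 12.52 on bur arrays 1 to 4 and 11.39, 11.07, 10.27 and 10.35 on control arrays 1 to 4, a 4.01-fold rise (2.00 ± 0.37 SE, adjusted p = 0.00319). Pyruvate kinase Pkm rose by 1.05 ± 0.19. Its 3 other probes gave 0.36, 0.92 and 1.1, of which 1 was called, and Ldha's other probes gave 0.28 and 0.97, 1 of them called.

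The 3 glycolysis genes called lower included 2 forms of an enzyme whose other form rose. Phosphofructokinase, the committing step, had its muscle form Pfkm at 7.85, 8.19, 8.10 and 7.92 on bur arrays 1 to 4 and 9.75, 9.18, 8.73 and 9.17 on control arrays 1 to 4 (-1.19 ± 0.19 SE, adjusted p = 0.00151) and its liver form Pfkl at 8.40, 8.36, 7.73 and 8.19 on bur arrays 1 to 4 and 6.95, 7.43, 7.58 and 7.15 on control arrays 1 to 4 (0.89 ± 0.18 SE, adjusted p = 0.00435). Neither pair of groups overlapped, and the 2 forms moved in opposite directions on the same arrays. The platelet form Pfkp was called lower at -0.56 ± 0.18, a call lost under 13 alternatives. Slc16a1, a lactate carrier used for uptake as well as release, fell by 0.87 ± 0.19, opposite to Slc16a3. The bifunctional enzyme Pfkfb3, which makes the activator of phosphofructokinase, rose by 1.34 ± 0.28.

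The promoter of Ldha is printed for the letters ACGTG, the core to which HIF binds. They also form part of CACGTG, the site of Myc and of clock factors. The 250 bases lie at chr1:106507842-106508091 of GRCr8, plus strand; capitals mark matches on either strand that start 87, 86 and 73 bases before the RefSeq start, the first 2 overlapping within CACGTG.
Ldha: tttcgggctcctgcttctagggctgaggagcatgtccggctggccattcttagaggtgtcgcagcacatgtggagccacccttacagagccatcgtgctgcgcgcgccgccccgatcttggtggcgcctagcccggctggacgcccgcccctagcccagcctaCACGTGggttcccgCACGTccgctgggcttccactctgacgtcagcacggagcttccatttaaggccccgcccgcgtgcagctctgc
ACGTG stood in 10 of 22 glycolysis promoters (45.5%) and 7 of 16 promoters of other hypoxia genes (43.8%), against 21.1% of all. Among the 10 were Pfkm and Slc16a1, which fell.

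Hypoxia genes outside glycolysis were fewer and less even. Of 18, 6 were called higher and none lower (median 0.91), and no call held under every alternative; the fit of the 8 arrays alone called 1. Hif1a, the oxygen-sensing subunit, rose by 0.84 ± 0.18 without overlap and lost its call only when control arrays 1 and 4 were left out together. Adrenomedullin Adm, a vessel-widening peptide, read 11.75, 10.33, 9.85 and 11.06 on bur arrays 1 to 4 and 9.59, 9.58, 8.60 and 7.37 on control arrays 1 to 4 (1.96 ± 0.50 SE, adjusted p = 0.0167), and Ndrg1 was at 1.95 ± 0.50; both lost the call in the fit of 8 arrays (adjusted p = 0.0569 and 0.0554). Vegfa, the main growth factor of vessels, was called at 0.75 ± 0.23, and lost the call under 9 alternatives. Carbonic anhydrase Car9, among the most oxygen-dependent genes, was at -0.13 (adjusted p = 0.594).

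Pyruvate entry into mitochondria changed at single steps, while no respiratory chain subunit passed the test. Pdk1, the kinase that shuts pyruvate dehydrogenase, read 8.81, 8.34, 7.93 and 7.79 on bur arrays 1 to 4 and 6.54, 6.61, 6.85 and 6.47 on control arrays 1 to 4 and rose 3.04-fold (1.60 ± 0.20 SE, adjusted p = 0.000486). Dlat, a subunit of that same dehydrogenase, rose by 0.84 ± 0.13 on the probe used, while its other probe gave 0.44, not called. Pyruvate carboxylase Pc, the other route of pyruvate into the citrate cycle, fell by 0.90 ± 0.13, citrate synthase Cs by 0.62 ± 0.14 and Dlst, of the oxoglutarate dehydrogenase, by 0.61 ± 0.12. These 3 of the 4 genes called lower among 22 held under all alternatives. The other probes of Dlst gave -0.18 and -0.47, neither called. None of 32 oxidative phosphorylation genes was called by limma (median -0.12, range -0.51 to 0.12), and 3, all lower, had an unadjusted p under 0.05. Cox7b came nearest, at -0.31 (adjusted p = 0.0513). With normexp background correction 9 of the 32 were called lower and 1 higher, and in the authors' deposited values 4 were lower, so small falls in this list depended on the processing. Of 21 genes of fatty acid oxidation 1 was called in each direction (median -0.03), neither under all alternatives.

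Most listed lipid genes of macrophages rose, and 1 gene of the fat cell list was called. Of 17 genes of cholesterol efflux and lipid handling 12 were called higher and none lower (median 1.05), 8 of them under all alternatives. Plin2, the coat of lipid droplets, read 12.49, 11.93, 11.23 and 11.41 on bur arrays 1 to 4 and 10.48, 9.24, 9.45 and 9.09 on control arrays 1 to 4, a 4.59-fold difference (2.20 ± 0.34 SE, adjusted p = 0.00135) with no overlap. The fatty acid carrier Fabp5 rose by 2.19 ± 0.29, the lysosomal glycoprotein Gpnmb by 2.07 ± 0.26, the cholesterol exporter Abca1 by 1.69 ± 0.27, the lysosomal cholesterol transporter Npc1 by 1.03 ± 0.14 and Soat1, which esterifies cholesterol for storage, by 1.57 ± 0.28. In the list of fat cells and lipid storage, fatty acid synthase Fasn fell by 0.65 ± 0.14, the 1 call among 21. Adiponectin (Adipoq), which only fat cells make, ranged from 3.89 to 7.69 on bur arrays and from 6.56 to 9.10 on control arrays, with no call (-1.91 ± 1.19). Cholesterol synthesis, 22 genes with a median of 0.05, held 1 call, Insig1, which was lost under 11 alternatives.

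Single genes of nucleotide and amino acid supply fell. Of 21 genes of one-carbon, purine and pyrimidine synthesis 6 were called lower and none higher (median -0.10), among them the mitochondrial folate enzyme Mthfd2 (-0.94 ± 0.19) and Gmps, which makes GMP (-0.55 ± 0.10), the 2 that held under all alternatives. Their other probes gave -0.49, called, and -0.50, not called. Of 17 genes driven by ATF4 under amino acid stress 2 were called higher and 2 lower (11.76% each, median 0.20). These shares lay near those of all genes, 13.7% higher and 9.74% lower. Asparagine synthetase Asns read 9.98, 9.80, 9.60 and 9.29 on bur arrays 1 to 4 and 11.25, 11.33, 10.84 and 10.86 on control arrays 1 to 4 and fell by 1.40 ± 0.18 (adjusted p = 0.000502), and the arginine transporter Slc7a1 fell by 0.70 ± 0.14. Atf3 rose by 2.59 ± 0.45 and Cebpb, a factor of the acute response, by 1.51 ± 0.20, all under every alternative. Atf4 itself was at 0.20 (adjusted p = 0.355).

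Acod1, which makes the antimicrobial metabolite itaconate in activated macrophages, was the metabolic gene with the largest difference. It read 9.45, 8.20, 7.07 and 7.78 on bur arrays 1 to 4 and 5.03, 3.71, 2.30 and 1.76 on control arrays 1 to 4, or 4.93 ± 0.77 (SE; adjusted p = 0.00137). It was well above background on 1 control array, and with dim arrays raised to the detection limit the difference was 4.76. Azin1, which protects the polyamine-making enzyme from breakdown, was the 1 gene of its list called lower, at -0.48 ± 0.12. Sat1, which acetylates polyamines for export, rose by 1.24 ± 0.24. Arginase Arg1 ranged from 10.77 to 14.21 on bur and from 6.01 to 12.73 on control arrays and was not called (3.54 ± 1.35, adjusted p = 0.0789), and Nos2, the competing user of arginine, was at 1.54 ± 0.61 on the probe used and 2.50, called, on its other probe.

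Antioxidant and metal genes were raised in 8 of 21 cases and lowered in 2 (median 0.40), 6 of the rises under all alternatives. Heme oxygenase Hmox1, which breaks heme down, read 14.17, 12.89, 12.54 and 13.56 on bur arrays 1 to 4 and 11.69, 11.01, 11.07 and 10.59 on control arrays 1 to 4 and rose 4.59-fold (2.20 ± 0.38 SE, adjusted p = 0.00241), the reverse of the heme synthesis genes. The zinc and iron importer Slc39a14 rose by 2.68 ± 0.29, Slc11a1, which moves iron out of phagosomes, by 2.47 ± 0.29, and the quinone reductase Nqo1, a target of NRF2, by 2.32 ± 0.54. Slc39a14 and Nqo1 were each detected on 3 of the control arrays. Gclc, another NRF2 target, was at -0.01. Haptoglobin Hp (-0.92) and the iron exporter Slc40a1 (-0.62) were the 2 called lower, each lost under 10 alternatives. In the lysosome list 12 of 24 were called higher and 1 lower (median 0.54). Cathepsin Ctsl read 14.19, 13.96, 13.82 and 14.11 on bur arrays 1 to 4 and 12.46, 11.64, 11.51 and 11.36 on control arrays 1 to 4, with more than 1.3 between the groups' nearest values (2.28 ± 0.22 SE, adjusted p = 0.000256); Ctsd rose by 1.58 ± 0.17, and Tfeb, the factor that switches on lysosomal genes, by 1.11 ± 0.22. The glucuronidase Gusb was called lower at -0.67, lost when any 1 of 7 arrays was left out. The 5 proton pump subunits of this list were not called, the nearest being Atp6v1b2 at 0.48 (adjusted p = 0.0504).

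**Figure D3:**
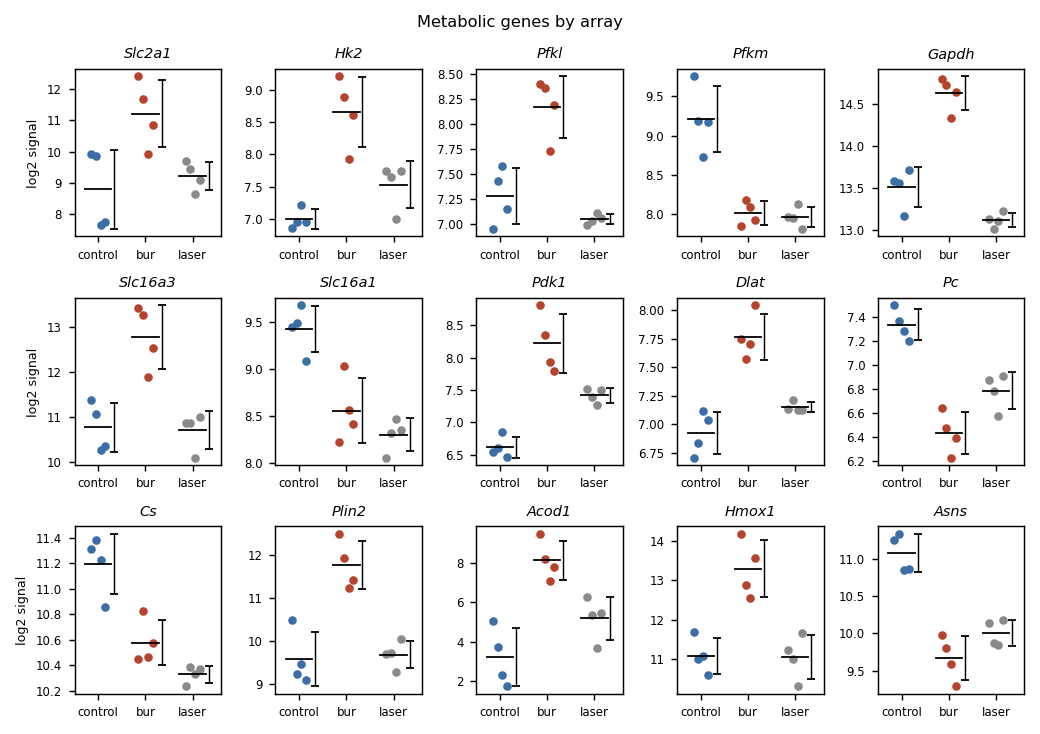
Log2 signal of 15 metabolic genes on the 4 control, 4 bur and 4 laser arrays; points are arrays, horizontal lines are means and bars are SD, and each vertical axis has its own range. Slc2a1, Hk2, Gapdh, Slc16a3, Pdk1, Plin2, Acod1 and Hmox1 are higher on bur than on control arrays, while Pfkm, Slc16a1, Pc, Cs and Asns are lower; laser arrays lie lower than bur arrays for all 8 of the former.

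Fibrillar collagen changed by chain. Type I collagen, the bulk of bone, read 15.74, 15.98, 15.94 and 16.04 on bur arrays 1 to 4 and 16.35, 16.17, 15.43 and 15.75 on control arrays 1 to 4 for Col1a1, and the groups overlapped in full (0.00 ± 0.19 SE, adjusted p = 0.997). Col1a2 was at -0.07 ± 0.24. Col3a1, typical of early wound and vessel wall matrix, read 12.47, 13.35, 12.62 and 13.83 on bur arrays 1 to 4 and 11.21, 11.38, 11.02 and 10.92 on control arrays 1 to 4 and rose 3.82-fold (1.93 ± 0.40 SE, adjusted p = 0.00573), with all bur values above all control values. Of 22 collagen chains 8 were called higher and none lower (median 0.65); Col3a1 and Col18a1 (0.97 ± 0.16), whose fragment is endostatin, held under all alternatives. The microfibril chains Col6a1 (1.30 ± 0.31) and Col6a3 (1.16 ± 0.25) lost their calls only when control arrays 1 and 4 were left out together. The other probes of Col6a3 gave 1.59, 2.12 and 2.37, all called. In the basement membrane list 7 of 14 were called higher, led by laminin Lama4 (0.89 ± 0.17), and Col4a3 was called lower but was well above background on no bur and 2 control arrays, so that its level was at least 1.7-fold lower on bur arrays; 75th percentile scaling called 3 higher.

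Enzymes that modify and crosslink collagen were higher in 9 of 22 cases and lower in none (median 0.65). Lysyl hydroxylases, which prepare the crosslinks, rose: Plod1 by 1.32 ± 0.21 and Plod3 by 0.92 ± 0.12, both under all alternatives. The procollagen protease enhancer Pcolce2 rose by 2.25 ± 0.42. Lysyl oxidase Lox read 11.83, 12, 12.04 and 12.76 on bur arrays 1 to 4 and 10.86, 11.65, 10.00 and 9.81 on control arrays 1 to 4; it was called (1.57 ± 0.42 SE, adjusted p = 0.0207), but control array 2 lay within 0.18 of the lowest bur array, and the call was lost without bur array 4 (adjusted p = 0.0623) or control array 4 (0.0561). Asporin Aspn, a small proteoglycan that binds collagen and TGF-beta, had the largest difference of the matrix lists, at 3.42 ± 0.50 (SE; adjusted p = 0.00104), with bur values of 5.97 to 7.61 and control values of 2.74 to 3.79 and 2 control arrays well above background. Biglycan Bgn (0.31) and decorin Dcn (0.09), the abundant members of that family, were not called.

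Part of the matrix glycoprotein list rose. Of 29 genes 11 were called higher and 1 lower (median 0.79). Fibronectin Fn1 read 14.38, 14.74, 13.43 and 14.15 on bur arrays 1 to 4 and 12.93, 12.61, 12.63 and 12.22 on control arrays 1 to 4, a 2.99-fold rise (1.58 ± 0.30 SE, adjusted p = 0.00354). The large proteoglycan versican (Vcan) read 12.10, 12, 10.93 and 11.90 on bur arrays 1 to 4 and 10.22, 9.34, 8.88 and 7.82 on control arrays 1 to 4. All its bur values exceeded all control values, and the difference was 2.67 ± 0.45 (SE; adjusted p = 0.00198). Fibulin Fbln1 rose by 2.59 ± 0.43, Tgfbi by 2.06 ± 0.43 and the hyaluronan receptor Cd44 by 1.41 ± 0.18, all under all alternatives. Periostin Postn (2.34 ± 0.59), thrombospondin Thbs2 (2.59 ± 0.61) and tenascin Tnc (0.93 ± 0.21) were called and lost the call only without both control arrays 1 and 4. Sparc was at 0.09, with no call, and its relative Sparcl1 fell by 1.24 ± 0.26. Sparcl1 was highest on control array 1, at 10.33, the array with the most nerve transcripts. Its call was kept under all alternatives, including the fit without control arrays 1 and 4. The part of nerve tissue in its fall was not tested further.

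Some matrix proteases and some of their inhibitors rose. Of 25 genes 11 were called higher and none lower (median 0.81), and 6 held under all alternatives. The inhibitor Timp2 read 13.96, 14.25, 13.82 and 14.20 on bur arrays 1 to 4 and 12.63, 12.98, 12.75 and 12.74 on control arrays 1 to 4 and rose 2.43-fold (1.28 ± 0.13 SE, adjusted p = 0.000267). Timp1 rose by 1.59 ± 0.41, and lost its call only without both control arrays 1 and 4. The membrane collagenase Mmp14 rose by 0.81 ± 0.14, Mmp19 by 1.37 ± 0.26 (well above background on 2 control arrays), and the shedding proteases Adam8 and Adam17 by 2.06 ± 0.33 and 1.59 ± 0.24. Mmp9, made by osteoclasts and neutrophils, and Mmp13, the collagenase of bone, were at 0.22 and 0.48 with overlapping groups. Of 19 genes of plasminogen activation and coagulation 7 were called higher and none lower (median 0.62); 75th percentile scaling called 7 higher and 3 lower, and without control arrays 1 and 4 the numbers were 6 and 1. Anxa2 and S100a10, which together hold plasminogen on the cell surface, rose by 1.56 ± 0.14 and 1.57 ± 0.16, and the urokinase receptor Plaur by 1.15 ± 0.24. Tissue factor F3, which starts clotting, was at 0.62 (adjusted p = 0.23). Among 16 integrin chains the fibronectin receptor chain Itga5 (1.0 ± 0.23) and the leukocyte chain Itgb7 (1.34 ± 0.25) were among 4 called higher, the former not without control arrays 1 and 4, and Itga4, the partner of Itgb7 on leukocytes, fell by 0.82 ± 0.20.

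In the bone cell lists, 17.65% of osteoblast, 25% of osteocyte and 25% of osteoclast genes were called higher, against 13.7% of all genes. The share was 27.78% for periosteal and fibroblast cells. Of 17 osteoblast genes Runx2, Sp7 and Phospho1 were called higher (median 0.45). Runx2, the master factor of the lineage, read 8.30, 8.35, 8.94 and 8.87 on bur arrays 1 to 4 and 7.47, 8.25, 8.24 and 7.86 on control arrays 1 to 4 (0.66 ± 0.21 SE, adjusted p = 0.0446). None of the 3 calls was kept without bur array 4, in the fit of 8 arrays alone or with 75th percentile scaling, where no osteoblast gene was called. Osteocalcin Bglap (0.37 ± 0.37), alkaline phosphatase Alpl (0.65 ± 0.29) and bone sialoprotein Ibsp (0.38 ± 0.26) overlapped between groups. Of 12 osteocyte genes 3 were called higher (median 0.84), with differences from 0.195 to 2.915. The mean log2 signal of this list lay at 7.44 to 7.91 on bur and 6.09 to 7.18 on control arrays, without overlap. Podoplanin Pdpn, which early osteocytes share with fibroblasts and lymphatic vessels, rose by 2.91 ± 0.67 under all alternatives. Sost, the Wnt antagonist of osteocytes named in the title of the study, read 4.90, 5.44, 6.69 and 6.12 on bur arrays 1 to 4 and 5.63, 6.35, 5.93 and 4.45 on control arrays 1 to 4. Its groups overlapped, and the difference was 0.20 ± 0.48 (SE; adjusted p = 0.803). In the osteoclast list Acp5 (0.11 ± 0.43) and Ctsk (0.02 ± 0.19), which define the mature cell, were not called. The proton pump subunit Tcirg1 rose by 0.85 ± 0.14 and the receptor Oscar by 1.57 ± 0.31, Oscar being well above background on 2 control arrays. Carbonic anhydrase Car2, which red cell precursors also hold, fell by 1.45 ± 0.20 without overlap. In the list of periosteal and fibroblast cells 5 of 18 were called higher and 1 lower (median 0.46), and the list mean was 7.51 to 7.87 on bur and 6.69 to 7.45 on control arrays, without overlap. Tagln, a smooth muscle and myofibroblast gene, rose by 1.17 ± 0.15 and Pi16, of adventitial fibroblasts, by 2.12 ± 0.35. The lower call, Mkx, was lost under 12 alternatives and was well above background on no bur array. Cartilage markers Acan and Col10a1 did not pass the filter, Sox9 was at 0.22, not called, and its partner Sox6, which red cell precursors also express, fell by 1.33 ± 0.28. Over all matrix lists 82 of 226 genes were called, 76 higher and 6 lower (median 0.60); without control arrays 1 and 4 the number was 38, with 32 higher and 6 lower.

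**Figure D4:**
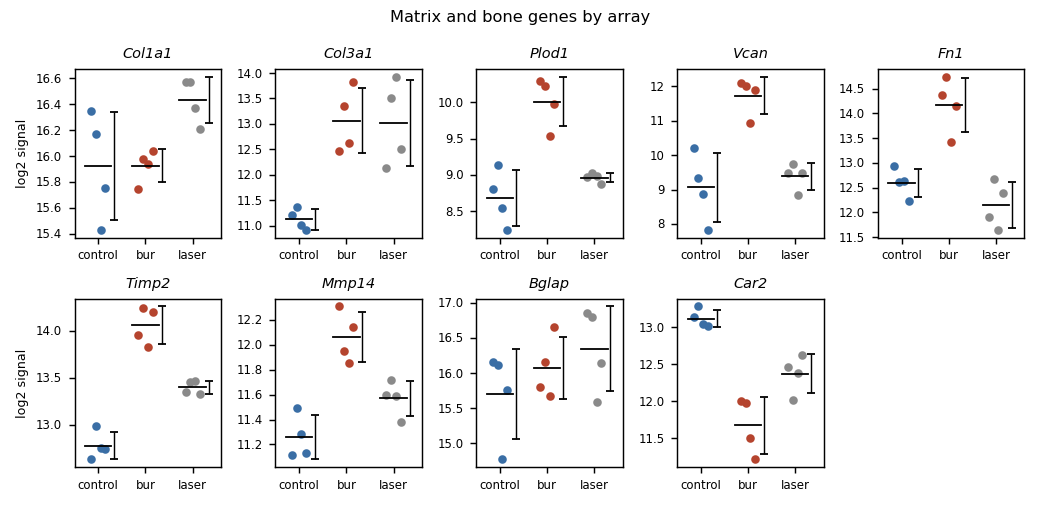
Log2 signal of 9 matrix and bone genes on the control, bur and laser arrays (4 each); points are arrays, lines are means and bars are SD, with a separate vertical range per gene. Col1a1 and Bglap overlap between control and bur, Car2 is lower on bur arrays, and the other 6 are higher there than in control.

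Signalling lists held 116 genes called higher and 13 lower of 377 tested (median 0.46), and 65 higher and 10 lower without control arrays 1 and 4. Feedback genes of NF-kB were the most complete. Of 21, 19 were called higher and none lower (median 1.39), 11 under all alternatives and never fewer than 14 with any 1 array left out. Nfkbia, the inhibitor that retains NF-kB in the cytoplasm and is made in response to it, read 11.22, 10.30, 9.82 and 10.22 on bur arrays 1 to 4 and 8.99, 9.0, 9.25 and 8.57 on control arrays 1 to 4, a 2.71-fold rise (1.44 ± 0.26 SE, adjusted p = 0.00294). Its relative Nfkbie rose by 1.59 ± 0.22, the adhesion molecule Icam1 by 2.05 ± 0.23 and Tnfaip2 by 1.87 ± 0.26. Tnfaip3, a deubiquitinase that ends the signal, rose by 1.86 ± 0.40; its other probe gave 1.08, also called. Relb rose by 1.39 ± 0.19, with other probes at 0.00 and 1.15, 1 of them called. The 2 members not called were Nfkb2 (0.12) and the receptor Cd40 (-0.41).

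The promoter of Nfkbia carries a match to the NF-kB motif, searched on both strands as GGGA and TTCC with any 2 bases between, and is shown for that reason. Its 250 bases lie at chr6:78597073-78597322 of GRCr8, minus strand. The match, in capitals, starts 31 bases before the RefSeq start.
Nfkbia: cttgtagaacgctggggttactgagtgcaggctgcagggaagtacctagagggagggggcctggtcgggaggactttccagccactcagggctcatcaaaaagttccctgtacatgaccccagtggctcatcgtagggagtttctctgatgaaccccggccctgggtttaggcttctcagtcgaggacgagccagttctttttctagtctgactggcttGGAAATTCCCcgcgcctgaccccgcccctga
Of 16 promoters of this list 4 (25%) held the motif, against 1.3% of all 11921; they belong to Nfkbia, Nfkbiz, Tnfaip3 and Nfkb2, the last of which was not called. TGACTCA, the AP-1 site, stood in 4 of these 16 promoters (25%) and in 4 of 17 promoters of matrix proteases and inhibitors (23.5%), against 3.31% of all. The 4 proteases were Mmp3, Mmp12, Mmp13 and Adam19, none of which was called.

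Of 24 genes of gp130 cytokines, STAT and SOCS 8 were called higher and none lower (median 0.43); 75th percentile scaling called 6 higher and 1 lower. Socs3, the inhibitor induced by the receptor chain gp130, read 11.01, 10.58, 10.14 and 10.89 on bur arrays 1 to 4 and 8.80, 8.85, 8.86 and 8.32 on control arrays 1 to 4 (1.95 ± 0.21 SE, adjusted p = 0.000307), with more than 1.2 between the nearest values of the groups. The ligand Clcf1 rose by 1.41 ± 0.19, and oncostatin M (Osm), made by myeloid cells, by 1.07 ± 0.26, a call lost when control arrays 1 and 4 were left out together. Interleukin Il6 was well above background on 1 bur and no control array: its difference of 2.08 ± 0.57 (SE; adjusted p = 0.0233) became 0.78 with dim arrays raised to the detection limit, and the bound was at least 1.19-fold higher. Il11 read 4.93, 5.15, 6.17 and 6.69 on bur arrays 1 to 4 and 3.57, 4.82, 4.09 and 2.89 on control arrays 1 to 4; its call was lost without any 1 of bur arrays 3 and 4 and control arrays 1 and 4. Stat3 was at 0.44 (adjusted p = 0.099).

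Negative regulators of the MAPK pathway rose in 8 of 15 cases and 1 was called lower (median 0.64). The ERK phosphatase Dusp6 read 12.33, 12.57, 11.98 and 12.16 on bur arrays 1 to 4 and 10.93, 11.12, 11.30 and 10.85 on control arrays 1 to 4 and rose by 1.21 ± 0.18 (SE; adjusted p = 0.00102). Spred3 rose by 1.58 ± 0.19 and the JNK phosphatase Dusp16 by 1.12 ± 0.21, whereas Dusp14 was called lower at -0.81, a call lost under 12 alternatives. Of 21 immediate early genes 9 were called higher and none lower (median 0.54). Fos (2.27 ± 0.34), Fosl1 (1.95 ± 0.30), Jun (0.99 ± 0.18) and Junb (1.47 ± 0.31), which pair as AP-1, rose under all alternatives, as did Maff (1.81 ± 0.19) and the flow-responsive factor Klf2 (1.22 ± 0.20). Fosl1 read 6.66, 6.40, 6.81 and 7.20 on bur arrays 1 to 4 and 5.09, 5.41, 4.91 and 3.84 on control arrays 1 to 4, with no overlap. Egr1, an early gene of serum response, was at 0.16 with overlapping groups; its second probe gave 0.65 and was called.

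Targets of p53 and apoptosis genes were higher in 10 of 22 cases and lower in 1 (median 0.52). Cdkn1a, which arrests the cell cycle, read 10.37, 9.90, 9.77 and 10.26 on bur arrays 1 to 4 and 8.62, 8.70, 7.72 and 7.45 on control arrays 1 to 4 and rose 3.87-fold (1.95 ± 0.28 SE, adjusted p = 0.000899). On the same arrays cyclin Ccnb2 and Cdk1 fell and cyclin Ccnd1 rose. A link between these differences was not tested. Plk3 rose by 2.33 ± 0.22 and the apoptosis effector Pmaip1 by 1.55 ± 0.24. The 3 Gadd45 genes, stress-induced and partly p53-driven, parted: Gadd45b rose by 1.41 ± 0.22, Gadd45g by 1.11 ± 0.21, and Gadd45a, the p53 target among them, read 8.45, 8.40, 8.19 and 7.47 on bur arrays 1 to 4 and 9.12, 9.40, 9.27 and 8.93 on control arrays 1 to 4 and fell by 1.05 ± 0.20. All 3 differences held under all alternatives. Mdm2, the p53 target that limits p53, was at 0.38 (adjusted p = 0.0643).

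Prostaglandin genes had 6 of 21 called higher and 2 lower (median 0.17). Cyclooxygenase Ptgs2, the inducible first enzyme, read 8.17, 7.66, 8.48 and 8.50 on bur arrays 1 to 4 and 5.66, 6.67, 6.15 and 5.43 on control arrays 1 to 4 and rose 4.68-fold (2.23 ± 0.31 SE, adjusted p = 0.000768), and the receptor Ptger2 rose by 2.34 ± 0.45. Alox15, a lipoxygenase of eosinophils and resident macrophages, read 8.64, 8.73, 8.46 and 8.52 on bur arrays 1 to 4 and 10.56, 10.40, 10.48 and 10.41 on control arrays 1 to 4; the groups lay 1.67 apart at their nearest values, and it fell by 1.87 ± 0.30. The phospholipase Pla2g2a was also called lower, at -1.14 ± 0.30, and lost the call without bur array 1 or 4. Ptges, which makes prostaglandin E, was at 2.29 ± 0.81 (adjusted p = 0.0611). The probes of the transporter Slco2a1 gave calls in opposite directions (0.57 on the probe used, 1.1 and -1.58 on the others), so its call is not interpreted.

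Among growth factor pathways of bone, shares called higher were 27.03% for TGF-beta, activin and BMP and 23.81% for Notch. They were 18.52% for Wnt ligands, receptors and antagonists and 11.11% for Wnt feedback targets. Of all genes 13.7% were called higher. In the list of TGF-beta, activin and BMP 10 of 37 were called higher and 1 lower (median 0.51), and 5 with bur array 4 left out. Bmp5, a ligand, read 7.04, 7.10, 6.30 and 6.86 on bur arrays 1 to 4 and 9.37, 8.90, 9.03 and 7.78 on control arrays 1 to 4 and fell 3.84-fold (-1.94 ± 0.33 SE, adjusted p = 0.00208). Gdf10, a relative of the BMPs, rose by 1.34 ± 0.23, the endothelial receptor Acvrl1 by 0.79 ± 0.14 and Skil, a feedback inhibitor of SMAD signalling, by 0.91 ± 0.16; with Bmp5 these held under all alternatives. Bmp2 (0.56), Tgfb1 (0.58) and the 4 Id genes, BMP targets that ranged from -0.27 to 0.44 with 1 at an unadjusted p under 0.05, were not called in limma. Of 27 Wnt ligands, receptors and antagonists 5 were called higher and none lower (median 0.48), but 75th percentile scaling called none higher and 1 lower. Among 9 feedback targets of Wnt, Ccnd1 was the 1 called; Axin2, the most specific of them, was at -0.38 (adjusted p = 0.243). In the Notch list 5 of 21 were called higher and 1 lower (median 0.24). The ligand Jag1 read 8.26, 8.02, 7.73 and 8.56 on bur arrays 1 to 4 and 6.62, 6.65, 7.07 and 6.41 on control arrays 1 to 4 and rose by 1.46 ± 0.22 (adjusted p = 0.00106), the DNA-binding partner Rbpj rose by 1.34 ± 0.16, and the regulator Dtx1 fell by 0.97 ± 0.18. Hes1, a direct target, was at 0.41 (adjusted p = 0.445).

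Of 12 Hedgehog genes 3 were called higher and 1 lower (median 0.65), and no call held under all alternatives. The ligand Dhh was well above background on no array of either group, so no fold is given for it. The receptor Gas1 was called lower at -0.62 ± 0.20, a call lost under 13 alternatives. Its other probe gave 0.61, not called, so the direction of the gene depends on the probe. Gli1, the readout of the pathway, was at 0.85 (adjusted p = 0.0928). Among 10 EGF receptor genes Erbb3, which binds neuregulins, read 8.31, 8.42, 7.83 and 8.91 on bur arrays 1 to 4 and 5.84, 5.62, 4.98 and 4.81 on control arrays 1 to 4 and rose 8.31-fold (3.06 ± 0.36 SE, adjusted p = 0.000381); it was the call of this list that held under all alternatives, beside Erbb2 (0.73), Hbegf and Areg (-1.21), which did not. Hbegf was well above background on 2 bur arrays and no control array, a level at least 2.17-fold higher, and Areg on 1 bur array. In the PDGF and IGF list Igfbp2 was called lower at -2.12 ± 0.65, with control arrays 1 and 4 highest at 8.41 and 7.8 and the call lost without either. Igfbp7, an IGF-binding protein of vessels, was called higher but was well above background on no bur or control array, so no value is given for it. Pdgfa was at -1.44 ± 0.26 (SE; adjusted p = 0.00297) on the probe used, but its 2 other probes gave 0.83 and 0.80, neither called, so the direction of the gene depends on the probe. Fgfrl1, a receptor without a kinase, fell by 0.59 ± 0.15, the 1 call among 8 FGF genes.

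Vessel genes were called higher in 16% of cases, near the 13.7% of all genes. Of 25, 4 were called higher and 1 lower (median 0.32). Pecam1 (0.53), Cdh5 (0.19) and Tek (-0.17), which define endothelium, were not called. Apelin (Apln), of growing vessel tips, rose by 1.69 ± 0.23 and endoglin Eng by 1.38 ± 0.25. Angpt1, a stabilising ligand, was called lower at -0.82 ± 0.20, with other probes at -0.44 and -0.20, neither called. Among 26 guidance genes 7 were called higher and none lower (median 0.51), of which Sema3c (1.79 ± 0.31) and the receptor Plxna1 (1.07 ± 0.21) held under all alternatives. Of 13 YAP and TAZ genes 3 were called higher (median 0.48), none in the fit of 8 arrays; Ccn1 and Ccn2, the targets most used to read the pathway, were at 0.92 and 0.87 (adjusted p = 0.0648 and 0.0622). In the glucocorticoid and clock list 3 of 21 were called higher (median 0.36), and Sgk1, a kinase induced by stress hormones, rose by 1.06 ± 0.19, whereas Fkbp5, the usual readout of glucocorticoids, was at -0.24.

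**Figure D5:**
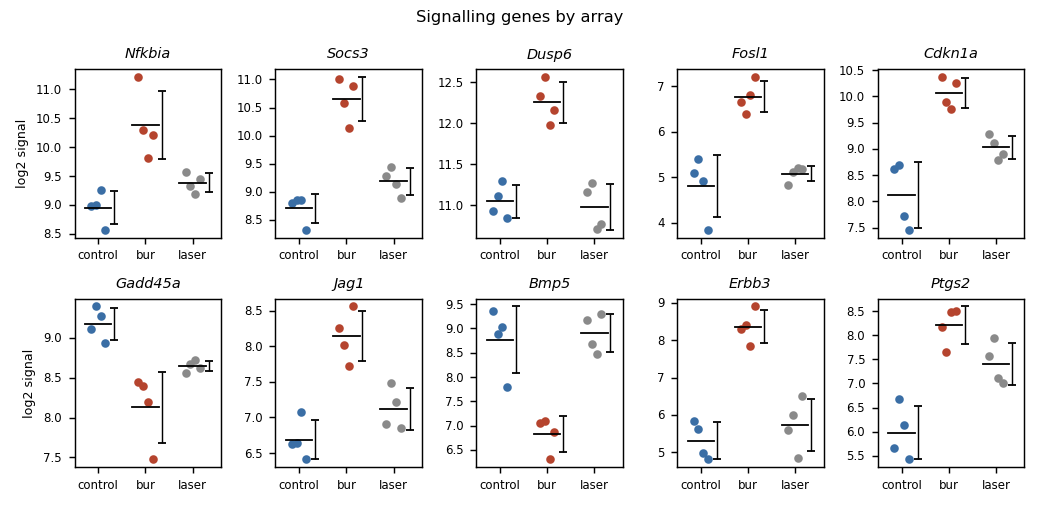
Log2 signal of 10 signalling genes on control, bur and laser arrays (4 each), with means as lines and SD as bars; vertical ranges differ between genes. Bmp5 and Gadd45a are lower on bur than on control arrays and the other 8 are higher, with no overlap between the 2 groups in any of the 10.

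Of 23 interferon-stimulated genes 11 were called higher (47.83%, against 13.7% of all genes) and 1 lower (median 1.12). Of the rises 7 held under all alternatives. The mean log2 signal of the list was 8.50 to 9.75 on bur and 7.83 to 8.27 on control arrays, without overlap. Ifit3 had the largest difference of the list, at 3.79 ± 0.83. Levels of single genes differed between arrays of a group. Isg15, a ubiquitin-like modifier, read 13.27, 12.39, 10.49 and 10.91 on bur arrays 1 to 4 and 10.50, 8.94, 7.52 and 7.5 on control arrays 1 to 4. In both groups arrays 1 and 2 were the highest, bur array 3 (10.49) lay just below control array 1 (10.50), and the difference was 3.15 ± 0.76 (SE; adjusted p = 0.0123). Usp18, which removes Isg15, rose by 2.6 ± 0.57 and Oas1a by 1.60 ± 0.31. Rsad2, in most cells induced with them, read 13.29, 13.62, 12.74 and 12.56 on bur arrays 1 to 4 and 14.45, 14.33, 14.54 and 14.26 on control arrays 1 to 4 and fell by 1.34 ± 0.27 (adjusted p = 0.00482), with no overlap and under all alternatives.

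Among the lists of cells other than bone, that of macrophages held the largest share of calls, 71.43% higher against 13.7% of all genes. Of 21 macrophage genes 15 were called higher and none lower (median 1.21), 8 under all alternatives. The lipopolysaccharide receptor Cd14 read 11.89, 11.69, 10.32 and 11.42 on bur arrays 1 to 4 and 8.76, 8.61, 8.36 and 8.44 on control arrays 1 to 4 and rose 6.9-fold (2.79 ± 0.31 SE, adjusted p = 0.000336). The scavenger receptor Msr1 rose by 3.37 ± 0.45, the engulfment receptor Mertk by 1.56 ± 0.14 and Csf1r, the growth factor receptor of the lineage, by 1.13 ± 0.26. The complement chains C1qa, C1qb and C1qc, typical of resident macrophages, were at -0.21, -0.01 and 0.41, not called. Cd163 was at -0.43, also not called. Siglec1 (1.48 ± 0.28), Adgre1 (1.11 ± 0.27) and, with overlapping groups, Mrc1 (1.21 ± 0.39) were called higher. So was Timd4, which was well above background on no control array and was at least 3.20-fold higher. The mean log2 signal of the list was 9.27 to 9.68 on bur and 8.10 to 8.50 on control arrays, without overlap; the part of macrophage RNA in the rises of the lysosome, lipid and NF-kB lists was not tested. In the neural list 4 of 13 were called lower and 1 higher. Mbp, of myelin, read 6.22, 9.92, 9.16 and 7.86 on bur arrays 1 to 4 and 13.29, 7.87, 8.14 and 12.37 on control arrays 1 to 4, highest on control arrays 1 and 4, and was not called. The myelin gene Pmp22, which fibroblasts also express, rose by 1.29 ± 0.23 under all alternatives. Gfap was not well above background on any bur array and on 2 control arrays. Of 13 skeletal muscle genes 2 were called higher and none lower (median 0.14); 75th percentile scaling called 2 higher and 2 lower. Both calls were troponins of fast muscle: Tnnt3 rose by 1.12 ± 0.23 under all alternatives and Tnni2 by 1.42 ± 0.35, a call lost with array weights (adjusted p = 0.0701), each with no overlap and well above background on all 8 arrays. The mean log2 signal of the list overlapped, at 4.28 to 5.88 on bur and 4.12 to 6.07 on control arrays. Muscle actin Acta1 was well above background on 1 control array alone and Ckm on 2 arrays of each group, neither called. None of 8 epidermal genes was called by limma, 2 had an unadjusted p under 0.05, and with normexp 1 was called higher.

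The extremes of the whole table included members of the lists above and genes without an evident place in these pathways. Among genes well above background on all 8 arrays with non-overlapping groups, the 12 highest comprised 6 CC and CXC chemokines, and then Gsg1 (4.26 ± 0.83), Saal1 (4.17 ± 0.64), Ifit3 (3.79 ± 0.83), the immune checkpoint receptor Havcr2 (3.69 ± 0.77), the carbonic anhydrase Car4 (3.65 ± 0.66) and the interferon-inducible Ifi214 (3.56 ± 0.69). Gsg1, named for germ cells, read 10.72, 10.50, 9.82 and 10.73 on bur arrays 1 to 4 and 8.56, 7.15, 5.01 and 4.0 on control arrays 1 to 4, with a spread over 4 log2 units among the controls. The 12 lowest included the red cell or heme genes Gata1, Slc4a1 and Slc25a37, and Bmp5. Cdhr1, a cadherin of photoreceptors and olfactory bulb, was lowest at -4.03 ± 1.11, with 11.48 and 11.38 on control arrays 1 and 4; its call was lost without bur array 1, control array 1 or control array 4, and without both those controls the difference was -1.89 (adjusted p = 0.185). Mapt (-2.10 ± 0.55) and Reln (-2.08 ± 0.34), both of neurons, were likewise highest on control arrays 1 and 4; without both, Mapt was at -0.95 (adjusted p = 0.1), and its call was also lost without bur array 1 or control array 4 alone, while that of Reln was kept. Rnls, Atp1b2 and Mrap were at -2.16 ± 0.32, -1.99 ± 0.31 and -1.95 ± 0.48, and the uncharacterised LOC678796 at -2.26 ± 0.35.

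Laser-cut bone differed from bur-cut bone in 4225 genes (25.8%), 1899 higher (11.6%) and 2326 lower (14.2%) on laser arrays. All laser arrays lay on the second slide, so slide and instrument cannot be told apart in these values. No red cell membrane gene was called between the 2 cuts (0 of 28; laser minus bur 0.31 for Klf1 and 0.66 ± 0.27 for Slc4a1), while 3 of 14 heme genes and 8 of 25 mitosis genes were higher on laser arrays. Glycolysis separated the cuts: 16 of 24 genes were lower on laser than on bur arrays and none higher, with Gapdh at -1.50 ± 0.15, Slc16a3 at -2.07 ± 0.37 and Pfkfb3 at -2.14 ± 0.28. Pfkm, which fell after bur drilling, was at -0.05 ± 0.19 between the cuts, not called. Of 17 lipid-handling genes 11, of 24 lysosome genes 11 and of 21 NF-kB genes 12 were lower on laser arrays. Bmp5 went the other way, at 2.08 ± 0.33. Among matrix genes 28 of 226 were lower and 17 higher on laser arrays; Fn1 was at -2.02 ± 0.30 and Vcan at -2.35 ± 0.45, whereas Col3a1 (-0.05 ± 0.40) was not called and Col1a2 was higher by 1.89 ± 0.24. Sost was at -0.63 ± 0.48, not called.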

How the data were processed

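Total RNA (200 ng) of rat calvaria was hybridised to 12 one-colour Cy3 arrays. The submitters' processing notes name Agilent Feature Extraction 11.0.1.1. The deposited scanner files give a processed intensity per spot, background-corrected within the array and not normalized between arrays, per the file headers. The authors' deposited table of bur against control holds log2 values per array, quantile normalized by the name of the deposited value file, and served as an alternative; its other steps are not given in the sources used here. The p-values of that table, deposited by the authors under the column names of limma's output, were not used for any call.

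Here the processed signals were put on the log2 scale and quantile normalized. Control spots and 14 probes with an outlier spot were left out, and 27196 probes were kept that 4 or more of the 12 arrays detected well above background. Spots of a probe were averaged, and the kept probe with the highest mean over all arrays stood for each of 16378 genes. All 3 groups were fitted with lmFit and eBayes in limma 3.58.1 (R 4.3.3), with Benjamini-Hochberg adjustment over all genes. Where a gene was dim on some arrays, raising them to the lowest signal well above background on that array gave a second difference or a bound. The fit was tested on simulated data: of 100 genes shifted by 1 log2 unit 57% were recovered, of 100 shifted by 2 units 91%, with 9 false calls among 16378 genes. The simulated noise was independent between genes and arrays, and far fewer genes were shifted than the 23.4% called here. These numbers therefore do not measure recovery or false calls on the real arrays. The number of arrays limits the precision.

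The members and the gene lists were chosen with earlier results of these data known. Named genes are up to 6 members per list with the smallest p, each called member that moved against the majority of its list, members whose role defines a list, and the 12 highest and 12 lowest called genes of the table; a few genes that this rule names are not reported here, though the counts include them. The 18 alternatives left out each array in turn and control arrays 1 and 4 together, and changed the arrays fitted, the scaling, the background correction, the filter, the probe summary, array weights and the replicate block. Promoters came from RefSeq (GRCr8); the array design names an older build, and no coordinates of it are used.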

Additional observations from a re-analysis of the deposited data

Results flagged for a closer look

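In 22 of 554 groups of 4 arrays (277 named genes, bur and control), 1 array lay apart from the other 3 by more than Dixon's 95% limit for the gap to the nearest value over the whole range. Chance alone marks about 1 in 20 such groups, so nothing is read from this number. Single high bur values were Col18a1 at 7.83 on bur array 4 against 7.29 to 7.39, Col4a3 at 2.61 on bur array 4 against 1.02 to 1.13, Dusp16 at 6.80 on bur array 1 against 6.0 to 6.11, F3 at 7.35 on bur array 1 against 6.52 to 6.57 and Gfap at 0.71 on bur array 4 against 0.65 to 0.66 on the other 3. Single low bur values were Mmp3 at 7.28 on bur array 3 against 10.10 to 10.26, S100a10 at 12.94 on bur array 3 against 13.44 to 13.53 and Tnfaip2 at 7.55 on bur array 3 against 8.30 to 8.41 on the other 3. Single high control values were Acta1 at 3.80 on control array 4 against 0.58 to 0.67, Axin2 at 4.50 on control array 3 against 3.77 to 3.88, Col18a1 at 6.64 on control array 2 against 6.42 to 6.45, Dhh at 2.33 on control array 4 against 0.67 to 0.79 and Ebf1 at 11.25 on control array 1 against 10.68 to 10.75 on the other 3. Single high control values were Il6 at 0.77 on control array 1 against 0.56 to 0.59, Lama4 at 6.52 on control array 3 against 6.21 to 6.26, Sgk1 at 7.73 on control array 3 against 7.02 to 7.12, Thbs2 at 5.87 on control array 3 against 5.34 to 5.42 and Tnni2 at 6.83 on control array 4 against 5.38 to 5.52 on the other 3. Single low control values were Adipoq at 6.56 on control array 1 against 8.71 to 9.10, Gdf10 at 5.78 on control array 4 against 6.20 to 6.21, Pla2g2a at 10.36 on control array 1 against 10.86 to 10.92 and Socs3 at 8.32 on control array 4 against 8.80 to 8.86 on the other 3. Acta1, Col4a3, Dhh, Gfap and Il6 were near or below background on the arrays concerned, so their order carries no measurement.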

How the results depend on the processing

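The count of 3835 genes called between bur and control bone stayed within 1.5 times under 16 of 18 alternatives, and fell to 2476 (1444 higher, 1032 lower) in the fit of the 8 arrays alone and to 2352 (1121 higher, 1231 lower) without control arrays 1 and 4. Leaving out 1 array at a time gave 2754 to 4113. Without control arrays 1 and 4 the matrix lists had 38 calls against 82 and the signalling lists 75 against 129; that setting leaves 2 control arrays. The total counts of the marrow and metabolism lists stayed within 1.5 times under all 18, but the metabolism genes called lower went from 21 to 41 with normexp, 34 in the authors' deposited values, 12 in the fit of the 8 arrays and 14 without control arrays 1 and 4, and the 6 marrow genes called higher ranged from 2 to 7. Pdgfa reversed, from -1.44 to 0.0655 with the mean of its probes. Of 277 named genes, 211 of them called, 230 kept direction and side of the threshold without control arrays 1 and 4, and 244 to 271 under the other alternatives that tested all 277; requiring detection on all 8 arrays tested 247, of which 241 kept both, and the authors' deposited values held 273, of which 13 lost and 11 gained a call; up to 10 genes without a call changed sign under 1 alternative. Of 419 listed genes called, 235 were called under every alternative. Same-numbered bur and control arrays deviated together with correlations of 0.0847, 0.196, 0.202 and 0.133, 1 of them under 0.1, and not every array correlated best with its own number, so the numbers were not taken to pair the arrays; with the replicate block 3989 genes were called, 2280 higher and 1709 lower. The cause of each shift was not tested. Weak signal over background limits genes detected on fewer than 4 arrays of a group.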

Other observations

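Mpo, of neutrophil granules, varied with the array number in all 3 groups. It read 8.03, 8.32, 9.68 and 9.10 on bur arrays 1 to 4, 8.06, 8.17, 10.86 and 11.14 on control arrays 1 to 4, and 8.19, 8.15, 9.93 and 10.18 on laser arrays 1 to 4. In each group arrays 1 and 2 were lower than arrays 3 and 4. The neutrophil granule list as a whole shared this order on control and laser arrays but not on bur arrays. Its mean log2 signal was 9.83, 10.10, 10.36 and 9.57 on bur arrays 1 to 4, lowest on bur array 4. It was 9.99, 9.90, 11.09 and 11.28 on control arrays 1 to 4, and 9.85, 10.07, 10.42 and 10.90 on laser arrays 1 to 4. Isg15 lay the other way in all 3 groups, highest on arrays 1 and 2, with 10.51, 9.48, 8.75 and 9.32 on laser arrays 1 to 4. The labels give no date or batch for these numbers, and what they share was not tested.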
